A study of Rattus norvegicus with 9 samples.

Results

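The muscle miRNAs (myomiRs) miR-1-3p, miR-133a-3p, miR-133b-3p, miR-206-3p and miR-499-5p were followed in the serum of rats in which Parkinson's disease was modelled with rotenone, a pesticide that blocks complex I of the mitochondrial respiratory chain. The members were taken by name, and all 5 were found among the 567 miRNAs counted. The study sequenced small RNA from serum of adult male Wistar rats in 9 libraries, 3 in each of 3 groups. Control animals were the baseline, the early group (EPD) had daily intraperitoneal rotenone at 2.0 mg/kg for 10 days, and the late group (LPD) had the same daily dose for more than 40 days, to a terminal stage. All animals are labelled wildtype. The submitters' treatment text names rotenone for rats of every group, controls included, while the design text gives doses for the modelled stages only, so what the controls received is uncertain. No age in weeks is stated for the adult rats. The model is a systemic toxin, and serum collects RNA from every tissue and from blood cells that lyse during clotting.

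miRNAs are short RNAs that pair with messenger RNAs, mainly through bases 2 to 8 (the seed), and lower their translation and stability. miR-1 and miR-133a are transcribed together in skeletal and heart muscle, miR-206 and miR-133b lie together and belong to skeletal muscle, and miR-499 lies in an intron of a myosin gene that is used in heart and in slow muscle fibres. In mouse muscle cells miR-1 and miR-206 promote differentiation and miR-133 promotes proliferation of myoblasts. All of them are known to enter blood when muscle fibres are damaged, which is why they are read as tissue markers in serum.

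The mature sequences are shown because the members fall into 3 seed groups and because 2 pairs of sequences differ by a single base. They are RefSeq sequences on the rat build GRCr8, in RNA letters and 5′ to 3′, with the seed in capitals, and all 5 members were matched. miR-1b, a near copy of miR-1-3p that is no member, is added for the comparison.
miR-1-3p: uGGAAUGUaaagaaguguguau
miR-1b: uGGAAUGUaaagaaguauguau
miR-206-3p: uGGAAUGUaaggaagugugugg
miR-133a-3p: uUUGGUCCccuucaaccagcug
miR-133b-3p: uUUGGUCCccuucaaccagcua
miR-499-5p: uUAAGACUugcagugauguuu

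miR-1-3p, miR-1b and miR-206-3p share 1 seed, the miR-133 pair shares another, and miR-499-5p has its own. Counting from 1 at the 5′ end, miR-1b differs from miR-1-3p only by G17A, and miR-133b-3p from miR-133a-3p only by G22A, the last base. miR-206-3p differs from miR-1-3p by A11G, A21G and U22G. How the submitters' counting handled reads that fit both members of such a pair is not given in the sources used here, so the split within the miR-1 pair and within the miR-133 pair is uncertain. No member had the same 9 counts as any other miRNA.

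The mature miR-1-3p of Mir1 lies at chr18:2160339-2160360 and miR-133a-3p of Mir133a1 at chr18:2157886-2157907, both on the minus strand and within the span of the protein-coding gene Mib1, with 2431 bases between them. miR-206-3p lies at chr9:30590747-30590768 and miR-133b-3p at chr9:30594629-30594650, both on the plus strand within the lncRNA gene LOC120094648 and 3860 bases apart. miR-499-5p lies at chr3:164570616-164570636 on the plus strand within the span of Myh7b, a myosin heavy chain gene. miR-1b lies on the plus strand at chr3:187864736-187864757, where no other gene of the RefSeq table overlaps it.

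The libraries differed in depth before any comparison. Totals were 1108167 to 1539557 counts in Control, 1136537 to 1668807 in EPD and 132609 to 305019 in LPD. From the number of miRNAs without a count, 1 molecule of RNA was estimated to stand for 1.07 to 3.09 counts in Control, 1.92 to 2.83 in EPD and 36.7, 49.1 and 12.3 in LPD 1, LPD 2 and LPD 3, if LPD serum had the mean profile of the other groups. Levels are given below in CPM, which puts every library on 1 common total after scaling by TMM, a factor that makes libraries comparable on most miRNAs. In LPD, 1 estimated molecule thus stood for 81.3 to 221 CPM, and members at low levels there rest on very few molecules. The hepatocyte miRNA miR-122-5p took 44.3% of the counts of Control 2. No label gives a batch or date, and nothing beyond the titles says that replicates came from separate animals, so the p-values measure only the spread between these samples.

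In every Control library the members had the order miR-206-3p, miR-1-3p, miR-133a-3p, miR-133b-3p and miR-499-5p, the same order as their group means. Together they made up 0.856% of the counts in Control 1 (Wilson 95% interval 0.839 to 0.873%), 0.0960% in Control 2 (0.0905 to 0.102%) and 0.468% in Control 3 (0.457 to 0.479%). With miR-122-5p left out of the total, the share of Control 2 was 0.172%, still below both other controls. The shares were 0.0297% in EPD 1, 0.0568% in EPD 2 and 0.494% in EPD 3, and 0.106% in LPD 1, 0.0758% in LPD 2 and 1.24% in LPD 3. The summed CPM of the members differed between libraries of 1 group by up to 5.38-fold in Control, 14.7-fold in EPD and 15.1-fold in LPD. The intervals take reads as independent and are too narrow where 1 molecule stood for many counts, as in LPD.

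**Figure D1:**
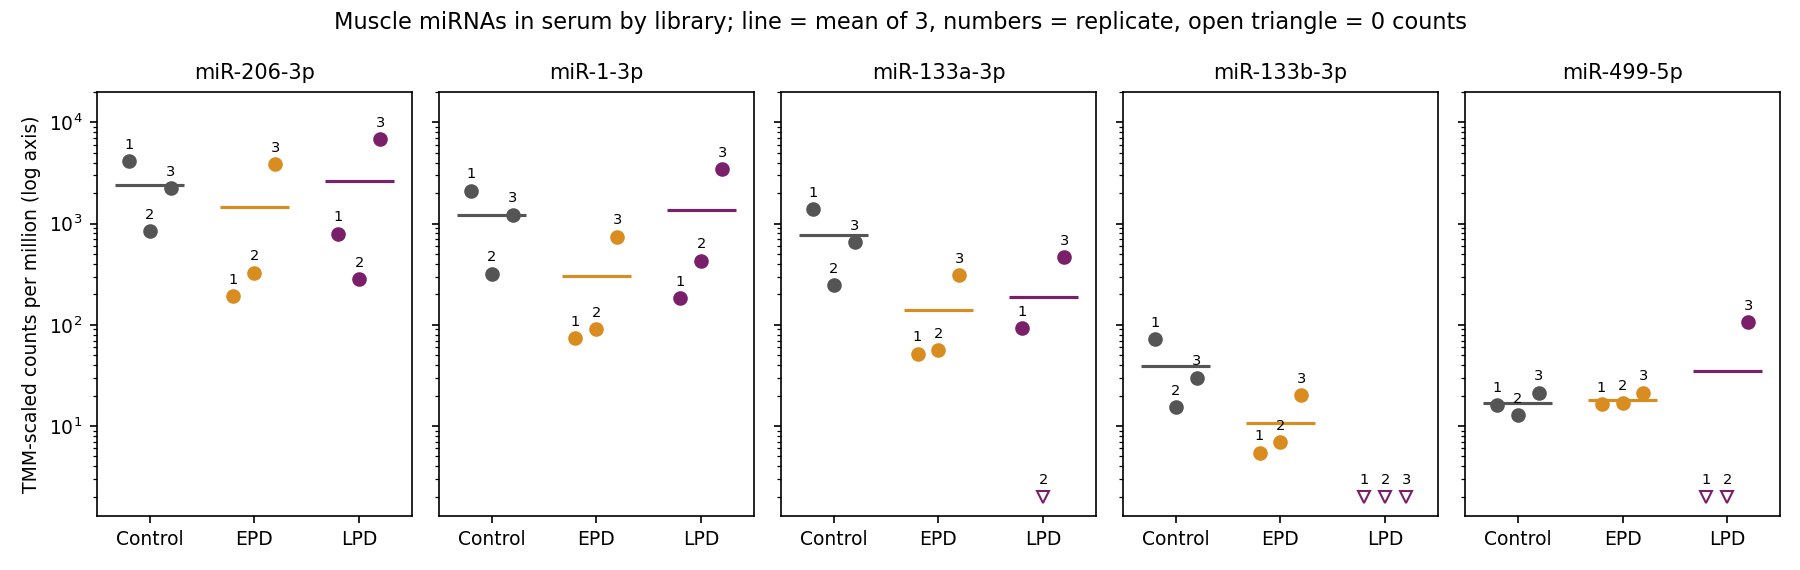
TMM-scaled CPM (log axis) of the 5 muscle miRNAs in each library of Control, EPD and LPD; lines are means of 3 libraries and numbers are replicates. Replicate 3 stands high in EPD and LPD for miR-206-3p, miR-1-3p and miR-133a-3p, while miR-499-5p lies between 12.8 and 21.4 CPM in all 6 Control and EPD libraries; open triangles are libraries with 0 counts, of which LPD holds 6.

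miR-206-3p, the skeletal muscle member, was the most abundant member in every library but LPD 2, with miR-1-3p counted apart from miR-1b. It had 191, 326 and 3883 CPM in EPD 1, EPD 2 and EPD 3, against 4133, 842 and 2225 CPM in Control 1, Control 2 and Control 3. EPD 1 and EPD 2 lay below every control and EPD 3 lay within the range of the controls. In LPD it had 792, 283 and 6810.5 CPM, and LPD 3 held the highest value of all 9 libraries while the other LPD libraries lay below every control.

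miR-1-3p, shared by skeletal and heart muscle, had 73.8, 90.9 and 740.2 CPM in EPD, against 2111, 319 and 1225 CPM in Control. Again EPD 1 and EPD 2 were below every control and EPD 3 was not. In LPD it had 182, 432 and 3435 CPM, which spans from below the lowest to above the highest control. These LPD levels correspond to 55, 96 and 521 counts, or an estimated 1.499, 1.96 and 42.3 molecules.

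miR-133a-3p, which shares a primary transcript with miR-1, had 51.9, 56.2 and 310.2 CPM in EPD, against 1393, 247 and 658 CPM in Control. The groups overlapped through EPD 3 alone, which exceeded Control 2. In LPD it had 92.7, 0 and 468 CPM. The 0 counts of LPD 2 allow up to 3 counts, or 13.5 CPM, for counting error only, and 1 estimated molecule there stood for 221 CPM. LPD 3 stood within the control range and LPD 1 below it.

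miR-133b-3p, the skeletal partner of miR-206, had 5.47, 6.93 and 20.1 CPM in EPD, against 71.7, 15.3 and 30.02 CPM in Control. These are 8, 9 and 32 counts in EPD and 88, 12 and 52 counts in Control, so the low values carry large counting error. EPD 3 lay above the lowest control and the other EPD libraries lay below all controls. In LPD it had 0 counts in all 3 libraries, for which 3 counts would be 9.94, 13.5 and 19.8 CPM and 3 estimated molecules 365, 662 and 244 CPM.

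miR-499-5p, the member tied to heart and slow muscle, behaved differently. It had 16.4, 16.9 and 21.3 CPM in EPD, against 16.3, 12.8 and 21.4 CPM in Control, that is 22 to 34 counts in EPD and 10 to 37 in Control. The groups overlapped throughout. In LPD it had 0, 0 and 105 CPM, and the last value is 16 counts or an estimated 1.298 molecules in LPD 3.

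The first comparison asked what 10 days of rotenone changed. EPD was lower than Control in the estimates for 4 of the 5 members, but 0 of the 5 passed the test, beside 0% of all 294 miRNAs tested. Tests were made with edgeR's quasi-likelihood fit and Benjamini-Hochberg adjustment at 0.05, and 11 of the 294 had an unadjusted p under 0.05, while DESeq2 called 1 miRNA and limma-voom 0. The log2 fold change was -2.01 for miR-1-3p (SE 1.28), -2.46 for miR-133a-3p (SE 1.43), -1.84 for miR-133b-3p (SE 0.83), -0.71 for miR-206-3p (SE 1.34) and 0.11 for miR-499-5p (SE 1.31), each with an adjusted p of 0.995 (n = 3 each). The median of the 5 was -1.84, beside -0.05 over all miRNAs tested. Their SEs had a median of 1.31, against 0.69 over all miRNAs, so changes of several fold could not be told apart from the spread between libraries.

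EPD 3 weighed on these estimates. Without EPD 3 they stood at -3.87 for miR-1-3p, -3.81 for miR-133a-3p, -2.62 for miR-133b-3p and -3.20 for miR-206-3p. Without Control 1 they stood at -1.33, -1.67, -1.02 and -0.04 in the same order. No member was called with any library left out, and the lowest adjusted p of these 4 among those fits was 0.583.

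The second comparison set LPD, after more than 40 days of rotenone, against Control. Only miR-133b-3p passed the test, as 1 of the 5 members called lower, beside 32.7% of all miRNAs called lower. Its level was 0 ± 0 CPM in LPD and 39.0 ± 29.2 CPM in Control (SD, n = 3 each, edgeR adjusted p = 0.0102). It was also the 1 member whose groups did not overlap, beside 41.8% of all miRNAs that were lower in LPD without overlap. With no count in LPD, miR-133b-3p passed the filter on low counts only through Control and EPD libraries, so the filter itself favoured a lower LPD. It did not pass the filter when only LPD and Control were fitted. Of the 96 miRNAs called lower, 64 had no count in any LPD library. All Control values of miR-133b-3p were under the CPM that 1 estimated molecule stood for in any LPD library, so no fold is given, and on counts divided by the estimated counts per molecule the adjusted p was 0.389.

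miR-1-3p averaged 1349.7 ± 1810.2 CPM in LPD and 1218 ± 896 CPM in Control, with a log2 fold change of 0.14 (SE 1.23, edgeR adjusted p = 0.930). miR-206-3p averaged 2629 ± 3631 CPM in LPD and 2400.0 ± 1652 CPM in Control (0.13, SE 1.34, adjusted p = 0.935). Both estimates turned negative without LPD 3, to -1.68 and -1.98, and without Control 2, to -0.24 and -0.24. miR-133a-3p averaged 187 ± 248 CPM in LPD and 766 ± 581 CPM in Control (-2.05, SE 1.42, adjusted p = 0.308), and its estimate was -3.88 without LPD 3 and -1.32 without Control 1. miR-499-5p averaged 35.2 ± 60.9 CPM in LPD and 16.8 ± 4.32 CPM in Control (0.95, SE 1.39, adjusted p = 0.631), all of it from LPD 3. Without LPD 3 miR-499-5p has no count in LPD and is called lower (adjusted p = 0.00740), beside 116 of the 324 miRNAs tested in that fit. In that fit miR-499-5p, too, passed the filter only through Control and EPD libraries. All its Control values (12.8 to 21.4 CPM) were under the CPM of 1 estimated molecule in LPD 1 and LPD 2 (122 and 221).

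The third comparison set LPD against EPD. Again miR-133b-3p was the 1 of 5 members called lower, beside 32.7% of all miRNAs, with 0 ± 0 CPM in LPD and 10.8 ± 8.05 CPM in EPD (edgeR adjusted p = 0.0394). Its groups did not overlap, as for 45.6% of all miRNAs, each with LPD lower. Here, and in the test of the 3 groups together, miR-133b-3p again passed the filter only through Control and EPD libraries. Of the 17 alternatives run for it, 4 kept this call, and it was lost without any single EPD or LPD library or without Control 3 (adjusted p 0.0523 to 0.115). The other members were higher in LPD in the estimates, by 2.16 for miR-1-3p (SE 1.29, adjusted p = 0.237), 0.40 for miR-133a-3p (SE 1.38, adjusted p = 0.844), 0.84 for miR-206-3p (SE 1.34, adjusted p = 0.669) and 0.84 for miR-499-5p (SE 1.39, adjusted p = 0.678). These rested on LPD 3 and EPD 3: miR-1-3p stood at 0.26 without LPD 3 and at 3.999 without EPD 3, miR-206-3p at -1.34 and 3.31, and miR-133a-3p at -1.51 and 1.74. miR-499-5p, with no count left in LPD, was called lower without LPD 3 (adjusted p = 0.00709), beside 114 of the 324 miRNAs tested in that fit. Its EPD values (16.4 to 21.3 CPM) were also under the CPM of 1 estimated molecule in LPD 1 and LPD 2. The 3 comparisons share libraries, so they are not independent of each other.

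With the 3 groups tested together, miR-133b-3p was called (edgeR adjusted p = 0.0227), beside 32.7% of all miRNAs. This call was lost without EPD 2 (adjusted p = 0.0521), LPD 1 (0.0656) or LPD 2 (0.0641), and on counts per estimated molecule (0.0897). The adjusted p was 0.415 for miR-1-3p, 0.331 for miR-133a-3p, 0.876 for miR-206-3p and 0.854 for miR-499-5p. The group means of miR-1-3p and of miR-206-3p had the order LPD, Control and EPD, and that of miR-133a-3p Control, LPD and EPD. The order was Control, EPD and LPD for miR-133b-3p and LPD, EPD and Control for miR-499-5p. Of the neighbours in these orders, only EPD and LPD for miR-133b-3p passed the test.

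**Figure D2:**
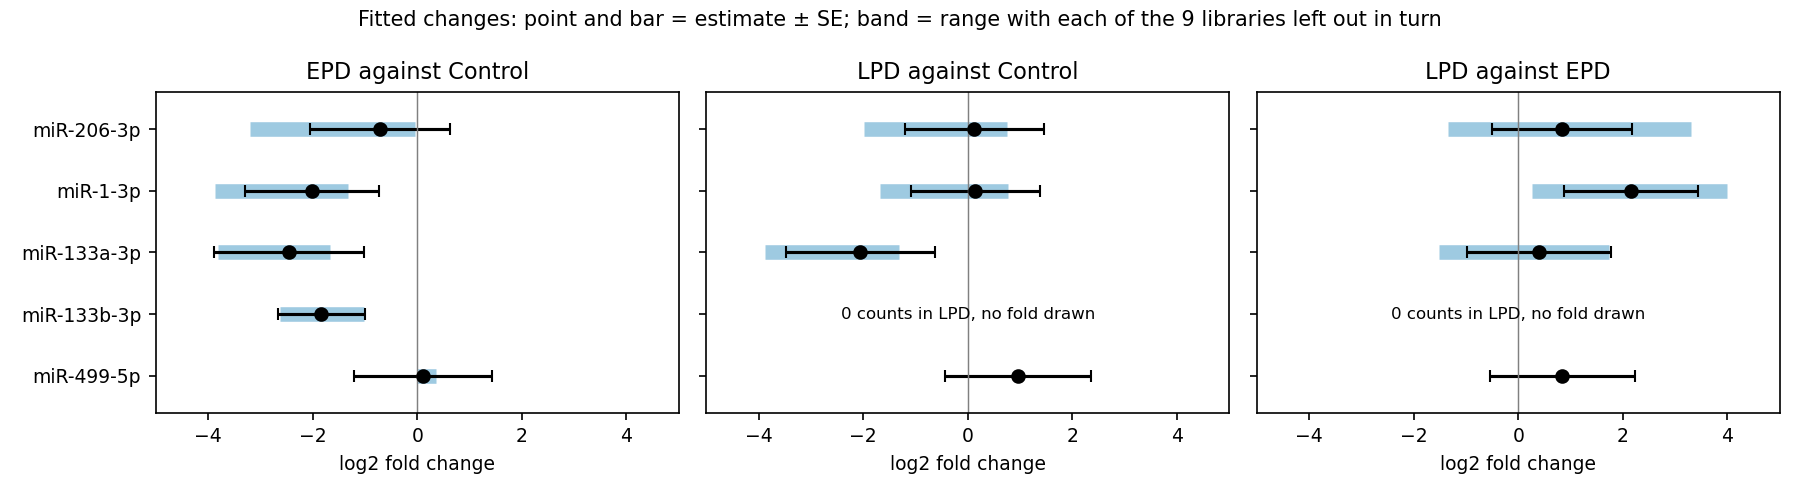
Fitted log2 fold changes (horizontal axis) of the 5 muscle miRNAs for EPD against Control, LPD against Control and LPD against EPD; points with bars are the estimate ± SE and bands the range with each of 9 libraries left out. All bars but those of miR-1-3p, miR-133a-3p and miR-133b-3p in EPD, of miR-133a-3p in LPD against Control and of miR-1-3p in LPD against EPD cross 0; no fold is drawn for miR-133b-3p in LPD, which had 0 counts, and no band for miR-499-5p in LPD, whose counts all came from LPD 3.

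Within Control and EPD, which no member separated, 4 of the members moved together from library to library. Over the 6 Control and EPD libraries, the log2 CPM of miR-1-3p and miR-133a-3p, from 1 primary transcript, had a Pearson r of 0.988 (exact permutation p = 0.00139, adjusted p = 0.00509 over 11 pairs) and a Spearman rho of 1 (exact permutation p = 0.00278, adjusted 0.00846). miR-206-3p and miR-133b-3p, from the other locus, had an r of 0.906 (exact permutation p = 0.0125, adjusted 0.0229) and a rho of 0.943 (exact p = 0.0167, adjusted 0.0262). Members of different loci were as close: miR-1-3p had an r of 0.975 with miR-133b-3p (exact p = 0.00139, adjusted 0.00509; rho 1, exact p = 0.00278, adjusted 0.00846) and of 0.958 with miR-206-3p (exact p = 0.00972, adjusted 0.0214; rho 0.943, exact p = 0.0167, adjusted 0.0262). miR-133b-3p had only 0.0456 to 0.123 counts per count of miR-133a-3p in these libraries and may hold reads of it. The correlations of miR-133b-3p with miR-1-3p and miR-206-3p may thus be partly those of miR-133a-3p, which was not tested.

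miR-133a-3p had an r of 0.989 with miR-133b-3p (exact p = 0.00139, adjusted 0.00509; rho 1, exact p = 0.00278, adjusted 0.00846), the pair whose reads may be shared, and of 0.913 with miR-206-3p (exact p = 0.0208, adjusted 0.0327; rho 0.943, exact p = 0.0167, adjusted 0.0262). Without the 2 libraries farthest from the median of the first member, EPD 1 and EPD 2 or Control 1 and EPD 1, these 6 correlations were between 0.806 and 0.997 over 4 libraries. With the group means removed they were between 0.920 and 0.992, so the libraries moved together within the groups as well. The values of 1 library share its scaling, and on shares of the library total the 6 correlations were between 0.916 and 0.990.

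miR-499-5p did not follow the others over these 6 libraries as a whole. Its r was 0.351 with miR-1-3p (exact p = 0.519), 0.218 with miR-133a-3p (exact p = 0.642), 0.194 with miR-133b-3p (exact p = 0.7) and 0.437 with miR-206-3p (exact p = 0.390). Its rho was 0.0857 with the first 3 (exact p = 0.919 each) and 0.143 with miR-206-3p (exact p = 0.803). The adjusted p was at least 0.537 for each of these. With the group means removed its r was higher, at 0.743 with miR-1-3p, 0.675 with miR-133a-3p, 0.578 with miR-133b-3p and 0.669 with miR-206-3p. These values were not tested. miR-499-5p had 10 to 37 counts in these libraries, with an SD of log2 CPM of 0.26. miR-133b-3p, which correlated with the others, had 8 to 88 counts and an SD of 1.34. It may also share reads with miR-133a-3p, so the 2 are not alike. The part of counting error in the lower correlations of miR-499-5p was not tested.

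Across all 9 libraries only miR-1-3p and miR-206-3p had counts throughout. Their r was 0.895 (exact permutation p = 0.00209, adjusted 0.00576) and their rho 0.883 (exact permutation p = 0.00308, adjusted 0.00846). Without EPD 1 and LPD 3, the 2 libraries farthest from the median, r was 0.798 over 7 libraries.

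**Figure D3:**
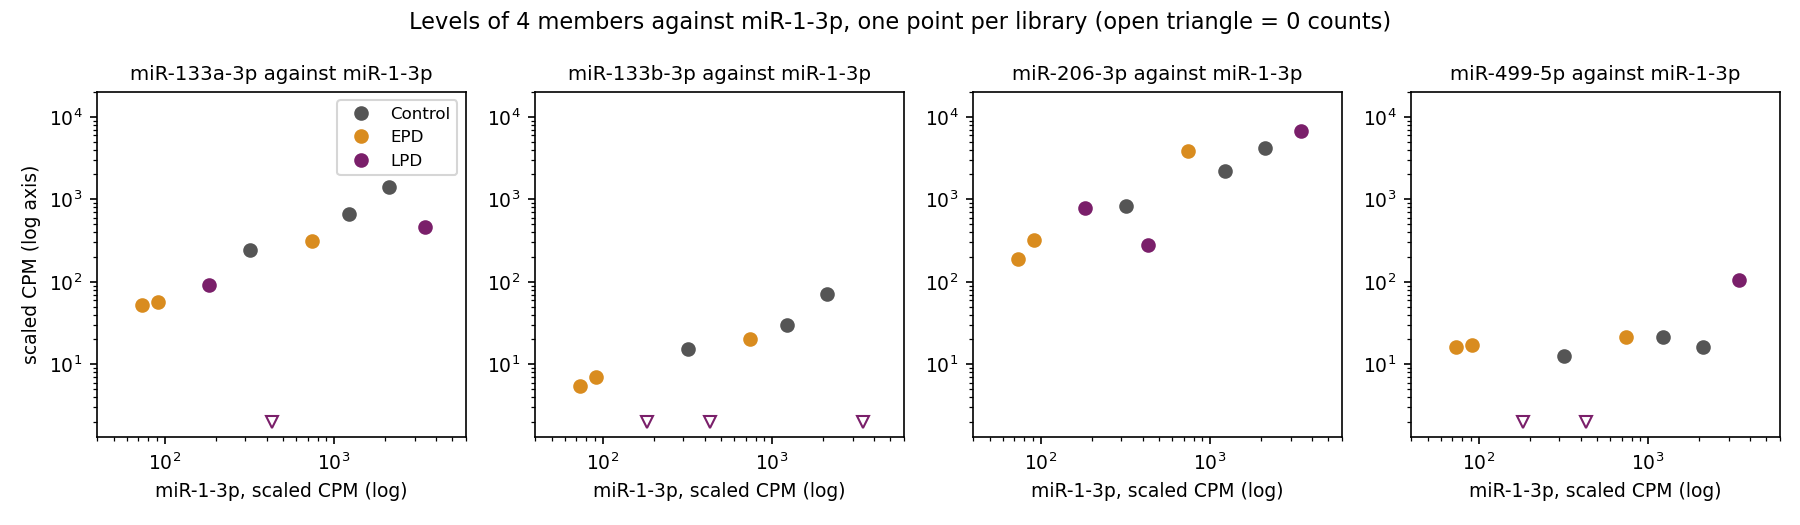
Scaled CPM of miR-133a-3p, miR-133b-3p, miR-206-3p and miR-499-5p (vertical, log axis) against miR-1-3p (horizontal, log axis), 1 point per library. The Control and EPD libraries rise along 1 line for the first 3 (r of 0.988, 0.975 and 0.958) and lie flat for miR-499-5p (0.351); open triangles mark LPD libraries with 0 counts.

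The members were also among the miRNAs that varied most between libraries. Of 290 tested miRNAs with counts in all Control and EPD libraries, miR-1-3p, miR-133a-3p and miR-206-3p ranked 3, 4 and 5 by the SD of log2 CPM over those 6 libraries (1.99, 1.89 and 1.88), behind both arms of miR-122. miR-133b-3p ranked 19 (1.34) and miR-499-5p 262 (0.26), against a median of 0.55. The spread within the Control group alone was 1.40 for miR-1-3p, 1.25 for miR-133a-3p and 1.16 for miR-206-3p, against a median of 0.50, and within EPD 1.84, 1.45 and 2.32, against 0.38.

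The proportions between members within a library do not depend on the scaling. miR-206-3p had 2.58, 3.58 and 5.25 counts per count of miR-1-3p in EPD, against 1.96, 2.64 and 1.82 in Control. The ratio was highest in EPD 3 of these 6, the EPD library with the most muscle miRNA, and EPD 1 lay just below the highest control. The log2 ratio was 1.87 ± 0.51 in EPD and 1.08 ± 0.28 in Control (SD, n = 3 each, difference 0.79, exact two-sided permutation p = 0.2, adjusted p = 0.45 over 3 comparisons). In LPD the ratio was 4.35, 0.656 and 1.98, a log2 ratio of 0.83 ± 1.37 (exact p = 0.9 against Control and 0.3 against EPD, adjusted 0.9 and 0.45). With 3 libraries against 3 the smallest p possible is 0.1. LPD 2 was the 1 library with less miR-206-3p than miR-1-3p, on 63 and 96 counts or an estimated 1.28 and 1.96 molecules. All these ratios leave out miR-1b, which had more counts than miR-1-3p in every library. It had 1.102 to 2.26 counts per count of miR-1-3p in EPD and 1.42 to 1.80 in Control. The split of reads between miR-1-3p and miR-1b is uncertain. Ratios of miR-206-3p to both together were not computed. The excess of miR-206-3p and the higher EPD ratios thus hold for miR-1-3p as counted only.

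miR-133a-3p had 0.704, 0.619 and 0.419 counts per count of miR-1-3p in EPD, against 0.660, 0.772 and 0.537 in Control. The groups overlapped, and the ratio stayed within 1.84-fold over 6 libraries in which miR-1-3p itself ranged from 73.8 to 2111 CPM. LPD 1 had a ratio of 0.509 and LPD 3 of 0.136, on 71 counts of miR-133a-3p, and LPD 2 had no miR-133a-3p beside 96 counts of miR-1-3p. As a share of the counts of both, miR-133a-3p was 11.99% in LPD 3 (Wilson 95% interval 9.62 to 14.9%, counting error only), below every Control and EPD library (29.5 to 43.6%), but the 71 counts stood for an estimated 5.76 molecules, so that interval is too narrow. These ratios were looked at after the values were seen and were not tested. They also leave miR-1b out of the denominator.

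miR-133b-3p had 0.105, 0.123 and 0.0648 counts per count of miR-133a-3p in EPD, against 0.0514, 0.0622 and 0.0456 in Control. All 3 EPD values were above all controls, EPD 3 narrowly, but the numerators of EPD 1 and EPD 2 were 8 and 9 counts. Their share of both was 9.52% (4.91 to 17.7%) and 10.98% (5.88 to 19.6%), on intervals that overlap those of Control 1 (3.99 to 5.99%) and Control 2 (3.38 to 9.95%). The interval of Control 3 (3.34 to 5.68%) overlaps that of EPD 1 and not that of EPD 2. The ratio was not tested.

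**Figure D4:**
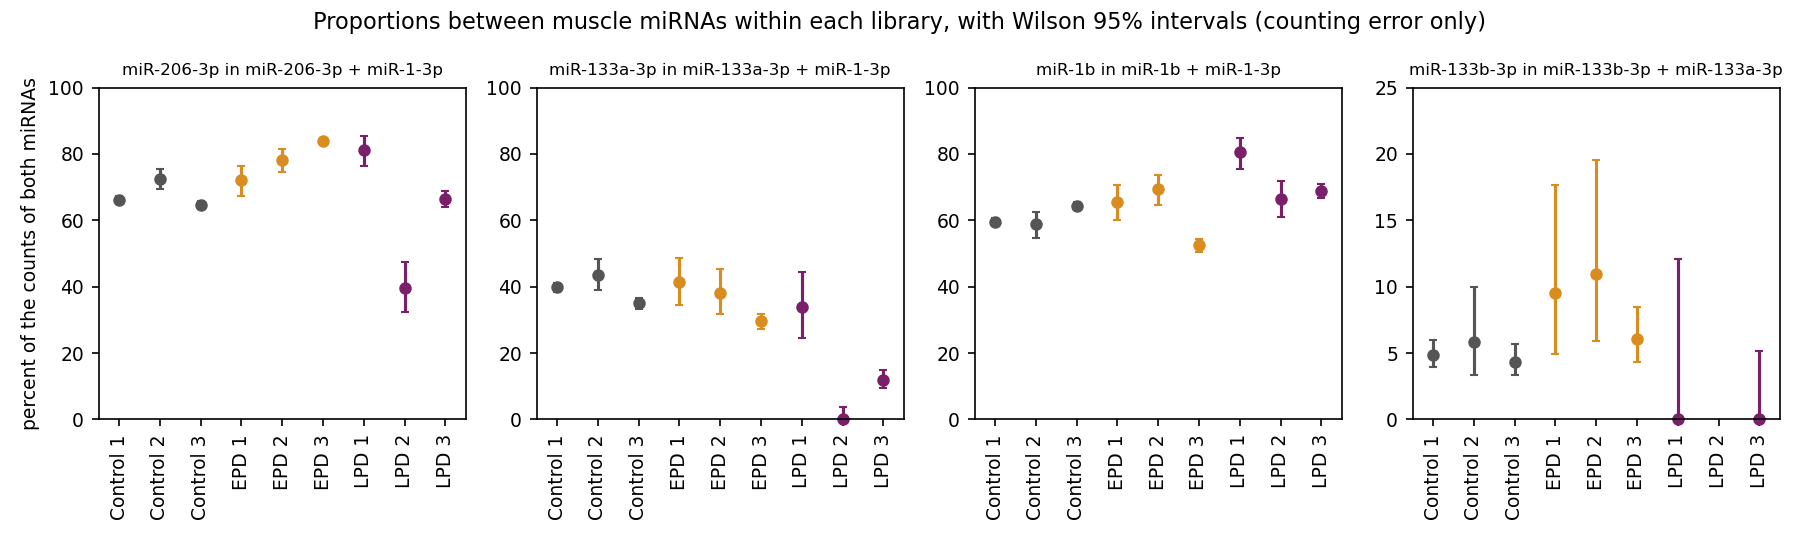
Share of one muscle miRNA in the summed counts of a pair, in percent, per library with Wilson 95% intervals. miR-133a-3p stays between 29.5 and 43.6% of itself plus miR-1-3p in the Control and EPD libraries and is 11.99% in LPD 3, and miR-206-3p is 39.6% of itself plus miR-1-3p in LPD 2; LPD 2 has no counts for the last pair.

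Of the other muscle miRNAs listed, 9 were in the files and 4 of these passed the filter on low counts: miR-1b, miR-486, miR-378a-3p and miR-378a-5p. None of the 4 was called in EPD against Control, nor in LPD against EPD, where 36.7% of all miRNAs tested were called in either direction. In LPD against Control 1 of the 4 was called higher, beside 4.42% of all miRNAs, and none lower. miR-1b, which differs from miR-1-3p by 1 base, had more counts than miR-1-3p in every library, 1.102 to 2.26 per count of miR-1-3p in EPD, against 1.42 to 1.80 in Control, and 1.99 to 4.11 in LPD. All 3 LPD ratios were above all controls, while EPD 2 lay above LPD 2 and LPD 3. miR-1b was not called in EPD against Control (log2 fold change -2.31, SE 1.12, edgeR adjusted p = 0.995), LPD against Control (0.68, SE 1.07, adjusted p = 0.654) or LPD against EPD (2.98, SE 1.15, adjusted p = 0.0718). The last was called in 3 of 19 alternatives, among them DESeq2 (3.18, adjusted p = 0.0102) and the fit without LPD 1 (3.42, adjusted p = 0.0429). It also rested on LPD 3: without that library the estimate fell to 1.23 (edgeR adjusted p = 0.295). Without EPD 3 it rose to 4.11 (edgeR adjusted p = 0.0515). The adjusted p was 0.225 with limma-voom (2.23) and 0.131 with edgeR on counts per estimated molecule.

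Opposite arms and heart miRNAs were near or at 0. miR-133a-5p had 1, 2 and 3 counts in EPD, against 12, 1 and 22 in Control, and none in LPD. miR-499-3p had at most 6 counts in any library. The heart miRNAs miR-208a-3p and miR-208b-3p, from introns of cardiac myosin genes, had at most 1 and 4 counts. miR-133b-5p had none.

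miR-486, miR-378a-3p and miR-378a-5p, made in muscle but also elsewhere, had other patterns. miR-486, which red cells hold in quantity, was called higher in LPD (39299 ± 17763 CPM) than in Control (8690 ± 1405 CPM; log2 fold change 2.18, SE 0.65, edgeR adjusted p = 0.0264), and had 19070 ± 17914 CPM in EPD. This call was lost without any 1 of the controls or without LPD 2 (adjusted p 0.0655 to 0.0796), while the log2 fold change stayed between 1.97 and 2.75 with a library left out. Without EPD 1 it was also called in LPD against EPD (2.30, adjusted p = 0.0219). Within EPD it stood high in EPD 1 alone, at 39743 CPM, against 9371 and 8096 CPM in EPD 2 and EPD 3, so its high library was not that of the members. miR-378a-3p was not called in any comparison and had 1956 ± 638 CPM in EPD, 1513 ± 1062 in LPD and 2185 ± 1184 in Control. miR-378a-5p had 193 ± 14.1 CPM in EPD, 43.4 ± 33.8 in LPD and 157 ± 24.1 in Control, and its lowest adjusted p was 0.0907, for LPD against EPD. In that comparison it was called lower in 3 of 19 alternatives: DESeq2 (-1.89, adjusted p = 0.00309), limma-voom (-2.62, adjusted p = 0.0427) and without LPD 1 (-2.69, adjusted p = 0.0460). In LPD against Control 1 of 19 called it, DESeq2 (-1.62, adjusted p = 0.0105). On counts per estimated molecule the edgeR adjusted p was 0.311 and 0.453 in these 2 comparisons. Its 20, 1 and 9 counts in LPD 1, LPD 2 and LPD 3 stood for an estimated 0.545, 0.0204 and 0.730 molecules.

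The miRNA with the pattern most like miR-1-3p over all 9 libraries was miR-1b, with an r of 0.962 among 122 other miRNAs with counts throughout. The next were miR-181a-5p (0.799), miR-872-5p (0.647), miR-142-3p (0.6001) and miR-21-5p (0.598), which ranged far less. miR-181a-5p, for example, had 380, 452 and 488 CPM in EPD, 570, 891 and 982 in LPD and 1177, 508 and 623 in Control. Over the Control and EPD libraries alone, miR-133a-3p, miR-133b-3p and miR-206-3p ranked 1, 4 and 6 of 289 by r with miR-1-3p, and miR-1b ranked 2. Of these 289, 12 (4.15%) had an r above 0.9. They include miR-345-5p (0.978), miR-409a-3p (0.960) and miR-494-3p (0.957), named after their values were seen, so a high r with miR-1-3p over 6 libraries was not limited to muscle miRNAs.

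Markers of other cells were summed in the same libraries. The summed level of 5 of 6 listed hepatocyte miRNAs found was 21048 to 56426 CPM in EPD, 21543 to 47027 in LPD and 29555 to 697423 in Control, highest in Control 2, the control lowest in muscle miRNA. Among these hepatocyte miRNAs miR-802-5p was at 0 in LPD. All 5 erythrocyte miRNAs were found, at 153209 to 394876 CPM in EPD, 236026 to 372968 in LPD and 84573 to 169287 in Control. All 5 of a list set for platelets and myeloid cells had 86857 to 99652 CPM in EPD, 80513 to 116400 in LPD and 53405 to 65802 in Control. That list also holds miRNAs found in other blood and vessel cells, so its sum is not specific to platelets and myeloid cells. The 3 smooth muscle miRNAs had 17620 to 24536 CPM in EPD, 31521 to 41059 in LPD and 26598 to 54919 in Control. The 4 neuronal ones had 3804 to 14649 CPM in EPD, 2294 to 3455 in LPD and 4868 to 9235 in Control, with miR-124-3p at 0 in Control and LPD and miR-138-5p at 0 in LPD. The part of these cells, and of red cell or platelet RNA released at clotting, in the levels of the muscle miRNAs was not tested. In serum, more muscle cells releasing RNA and more RNA released per cell cannot be told apart.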

How the data were processed

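Serum small RNA was extracted with miRNeasy and prepared with QIAseq, per the labels' protocols. The authors deposited whole-number read counts per mature miRNA, and the submitters' processing notes name the build mRatBN7.2. Aligner, counter, miRNA annotation and use of molecular identifiers: not given in the sources used here, so intervals cover counting error only. The single-library files and the series matrix differed in 0 values.

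miRNAs were filtered with filterByExpr (at least 10 counts, 15 in total), leaving 294, and fitted in 1 edgeR 4.0.16 model of all 9 libraries (TMM, robust quasi-likelihood, no covariates; R 4.3.3). SEs were derived from that fit, as the absolute log2 fold change divided by the square root of its quasi-likelihood F statistic. Ratios and correlations (prior of 0.5 counts) used exact permutation tests (Python 3.11.15). Each library's molecules were estimated as the number of draws from the mean Control and EPD profile that leaves as many miRNAs uncounted as observed. DESeq2 1.42.0, limma-voom 3.58.1, other scalings and filters, the replicate block and leaving out each library were alternatives. The fits were tested on simulated data in which every library had the mean total of the Control and EPD libraries. That test did not cover the low depth of LPD or its many counts per molecule, so it does not bear on the LPD calls. All members are named, with muscle-list rows and the 5 patterns nearest to miR-1-3p. Members and lists were chosen with earlier results of these data known.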

Additional observations from a re-analysis of the deposited data

How the results depend on the processing

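No member was called in EPD against Control under any alternative, and the call of miR-133b-3p in LPD against Control held in 16 of 17 (adjusted p up to 0.0372) and was lost on counts per estimated molecule (0.389). In LPD against EPD it was lost in 13 of 17, the replicate block included (adjusted p = 0.0609), which called miR-1b (2.61, adjusted p = 0.0381) and moved the 3-group call of miR-133b-3p to 0.0519. miR-133b-3p did not pass the filter when only LPD and 1 other group were fitted, and it, miR-133a-3p and miR-499-5p could not be fitted where counts in all 9 libraries were required. No pairing by replicate number was seen over the miRNAs tested, though the few molecules of the LPD libraries could hide one there. Same-numbered libraries had correlations of -0.11 to 0.06 in their deviations from the group means. The replicate block gave 0, 101, 101 and 79 calls for EPD against Control, LPD against Control, LPD against EPD and the 3 groups together, beside 0, 109, 108 and 96. The counts of calls were 1, 38, 35 and 37 when every library had to hold a count, 0, 35, 43 and 46 on counts per estimated molecule, and 52 (LPD against Control) and 67 (LPD against EPD) when only 2 groups were fitted. DESeq2 called 1 miRNA in EPD against Control, as did the fit without Control 2, so the range there was 0 to 1 with a library left out. For the 3 groups together it was 58 (without LPD 2) to 116 (without Control 2).

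Directions turned for estimates that did not pass. In LPD against Control limma-voom gave -1.005 for miR-1-3p, -1.08 for miR-206-3p, -1.13 for miR-499-5p and -0.16 for miR-1b, and the replicate block -0.75, -1.19 and -0.38 for the first 3. With a library left out the ranges were -1.68 to 0.77 for miR-1-3p, -1.98 to 0.75 for miR-206-3p, -7.15 to 1.599 for miR-499-5p and -0.99 to 1.19 for miR-1b. In LPD against EPD limma-voom gave -0.85 for miR-133a-3p and -1.32 for miR-499-5p, the replicate block -0.38 and -0.57, and the ranges were -1.51 to 1.74 for miR-133a-3p, -1.34 to 3.31 for miR-206-3p and -7.34 to 1.41 for miR-499-5p. The lowest values of these 7 ranges all came without LPD 3, and for miR-499-5p they are fitted values against 0 counts and no bound. For miR-378a-3p the estimate was 0.0805 in EPD against Control with library totals, and with a library left out it ranged from -0.39 to 0.49 there, from -0.92 to 0.15 in LPD against Control and from -0.85 to 0.0762 in LPD against EPD. The difference in log2 ratio of miR-206-3p to miR-1-3p, LPD against Control, ranged from -0.89 to 0.48 (without LPD 2). The 6 correlations among miR-1-3p, miR-133a-3p, miR-133b-3p and miR-206-3p stayed between 0.806 and 0.997. Those of miR-499-5p rose to 0.743 (miR-1-3p), 0.675 (miR-133a-3p), 0.578 (miR-133b-3p) and 0.669 (miR-206-3p) with the group means removed, to 0.469 and 0.670 for the last 2 without the 2 farthest libraries, and to 0.435 for miR-133b-3p on shares of the total. The cause was not tested. Depth limits the LPD values most, where 1 estimated molecule stood for at least 81.3 CPM.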
